A study of Mus musculus with 51 samples.

Results

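The genes described here act in crossover formation. They are Msh4, Msh5, Hfm1, Rnf212, Ccnb1ip1, Cntd1 and Mlh3. They were chosen by name for their role, with earlier results of these data known, and they are 7 of the 20722 protein-coding genes that GENCODE M21 places on chromosomes 1 to 19. For each gene, the peaks of 20 ChIP-Seq peak lists were taken at its protein-coding transcription start sites (TSSs), within 500 bp of the 5′ end in either direction (mm10). A gene was called in a list when at least 1 bp of a peak lay in such a window, and its width is that of the widest such peak.

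In meiotic prophase, programmed DNA breaks are repaired by recombination, and a small share of the repair sites becomes crossovers that hold homologous chromosomes together until they segregate. MSH4 and MSH5 pair as MutSγ and stabilize early recombination intermediates together with the helicase HFM1. RNF212 and HEI10, the product of Ccnb1ip1, are RING-domain ligases that select which of these sites mature. CNTD1 is needed for the maturation of these sites and MLH3 is the endonuclease subunit of MutLγ, which makes the final cuts. H3K4me3 and H3K9ac mark the promoters of genes in use, and PRDM9 also deposits H3K4me3 at recombination hotspots.

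The nuclei came from whole testis of wild-type adult male C57Bl/6J mice, fixed with formaldehyde and sorted by flow cytometry. Leptotene nuclei were sorted with antibodies to SCP3 and STRA8. Zygotene, early pachytene, late pachytene and diplotene nuclei were sorted with antibodies to SCP3, H1t and SCP1, and the zygotene sort had the lowest purity. H3K4me3 (EpiCypher antibody, sonicated chromatin) had 10 lists, from experiments 1 and 2 of each of the 5 stages. H3K4me2/3 (Abcam ab8580, which binds both methylation states) had 5 lists from experiment 2. H3K9ac had 5 lists from experiment 1. The antibody label of these last libraries reads H3K4me3 although their titles read H3K9Ac, and they are named here by their titles, since the catalogue number on the label belongs to the H3K9ac antibody of the study's methods.

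The lists held from 516 to 30943 peaks. H3K4me3 had 2 libraries per stage, whereas H3K4me2/3 and H3K9ac had 1 and no replicate check. The labels number the experiments and do not say whether they came from separate animals, so p-values measure the spread between these libraries, which may be technical. The lists hold no score, height or read count, so the depth behind a call is unknown, and a gene without a peak may carry the mark below the caller's threshold. Fewer nuclei with the mark and less mark per nucleus cannot be told apart in such sorted populations. Of the sorting markers, Sycp3 had an H3K4me3 peak in all 10 lists and Sycp1 in 8. Stra8 had one only in both leptotene libraries. Hist1h1t, which encodes H1t, had no H3K4me3 peak at pachynema or diplonema and had one in leptonema of experiment 1 and in zygonema of experiment 2. Among the markers of other testis cells, 2 of 5 Sertoli cell genes, 1 of 5 Leydig cell genes, 2 of 5 spermatogonial genes and 0 of 5 round spermatid genes had an H3K4me3 peak in any library. With H3K4me2/3, all 5 spermatogonial genes had a peak in leptonema and in zygonema and 3 to 4 of them later, 3 Sertoli cell genes had one in leptonema and 1 in zygonema, and at most 1 Leydig cell or round spermatid gene had one at any stage. The Sertoli cell genes Sox9 and Wt1 had theirs in leptonema of experiment 2, and Wt1 also in zygonema of experiment 2. Their part in the results below was not tested.

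The marks were read in windows around coding TSSs, and promoter sequences of the members are shown first. They are the RefSeq promoters (GRCm38.p6, the sequence of mm10), from 250 bp before to 50 bp after the RefSeq start, printed 5′ to 3′ in the direction of transcription. All 7 genes had an entry, and the 6 promoters that overlapped an H3K4me3 peak, at least in part, in 3 or more lists are printed. That of Ccnb1ip1 lies at its downstream coding TSS and overlapped an H3K4me3 peak in 3 lists. Its upstream coding TSS, at position 50807732, had a peak in 6 lists, and the sequence there is not shown. Capitals mark the matches, on either strand, to 9 short motifs. These are the STRA8 core CCTCAG, the MYB core AACNG, the CCAAT box CCAAT, the GC box GGGCGG, the CRE core TGACG, the MAX-family E-box CACGTG, the E2F core GCGGGAA, the NRF1 core GCATGC and the RFX core GTTGCC. Matches may overlap, as the GC box and the E2F core do in Rnf212. Msh5 lies on the minus strand at chr17:35046573-35046872, Mlh3 on the minus strand at chr12:85270550-85270849, Rnf212 on the minus strand at chr5:108774978-108775277, Ccnb1ip1 on the minus strand at chr14:50795679-50795978, Hfm1 on the minus strand at chr5:106925841-106926140, and Cntd1 on the plus strand at chr11:101278953-101279252.
Msh5 promoter: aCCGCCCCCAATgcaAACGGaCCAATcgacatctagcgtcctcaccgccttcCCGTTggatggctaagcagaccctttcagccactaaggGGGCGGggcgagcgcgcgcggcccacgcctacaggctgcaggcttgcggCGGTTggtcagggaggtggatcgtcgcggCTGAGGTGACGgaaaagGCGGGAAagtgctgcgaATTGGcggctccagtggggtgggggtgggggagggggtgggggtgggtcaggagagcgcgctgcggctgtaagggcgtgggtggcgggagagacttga
Hfm1 promoter: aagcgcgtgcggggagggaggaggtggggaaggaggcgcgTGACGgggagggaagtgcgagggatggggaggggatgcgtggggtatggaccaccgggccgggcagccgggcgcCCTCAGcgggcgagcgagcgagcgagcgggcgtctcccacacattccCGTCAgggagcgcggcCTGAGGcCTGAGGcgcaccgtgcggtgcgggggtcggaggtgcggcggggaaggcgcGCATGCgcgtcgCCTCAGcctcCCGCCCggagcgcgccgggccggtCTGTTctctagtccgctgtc
Rnf212 promoter: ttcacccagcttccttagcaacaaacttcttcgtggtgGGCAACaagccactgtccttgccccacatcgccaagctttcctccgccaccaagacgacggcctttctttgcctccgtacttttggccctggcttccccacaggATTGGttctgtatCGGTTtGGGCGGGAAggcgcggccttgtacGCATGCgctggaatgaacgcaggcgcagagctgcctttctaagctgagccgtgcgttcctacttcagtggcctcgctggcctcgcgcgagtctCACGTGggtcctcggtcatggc
Ccnb1ip1 promoter: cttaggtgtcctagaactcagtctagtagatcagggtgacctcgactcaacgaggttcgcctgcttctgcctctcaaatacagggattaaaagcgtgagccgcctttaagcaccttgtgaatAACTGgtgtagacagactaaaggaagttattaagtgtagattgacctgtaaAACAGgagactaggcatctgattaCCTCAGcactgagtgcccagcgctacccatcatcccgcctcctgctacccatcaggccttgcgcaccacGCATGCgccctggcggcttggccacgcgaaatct
Cntd1 promoter: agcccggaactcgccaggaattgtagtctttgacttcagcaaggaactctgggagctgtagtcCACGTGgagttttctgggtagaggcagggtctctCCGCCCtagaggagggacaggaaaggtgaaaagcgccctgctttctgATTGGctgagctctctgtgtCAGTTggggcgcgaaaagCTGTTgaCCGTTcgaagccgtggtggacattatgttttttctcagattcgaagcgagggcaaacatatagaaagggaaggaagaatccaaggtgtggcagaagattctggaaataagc
Mlh3 promoter: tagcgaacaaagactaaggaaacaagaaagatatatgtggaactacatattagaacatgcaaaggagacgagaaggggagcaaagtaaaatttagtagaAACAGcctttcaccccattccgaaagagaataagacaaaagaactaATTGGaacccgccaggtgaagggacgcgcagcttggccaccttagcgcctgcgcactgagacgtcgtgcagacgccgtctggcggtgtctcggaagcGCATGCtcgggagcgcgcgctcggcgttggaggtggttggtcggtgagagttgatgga

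All 6 printed promoters held more CpG dinucleotides than the median of 7 over the 32851 mouse promoters of this length. Hfm1 held 41, Msh5 27, Mlh3 and Rnf212 22 each, Ccnb1ip1 13 and Cntd1 12. The RefSeq promoter of Msh4, which is not printed, held 6, below that median. As many as in Hfm1 were found in 3.46% of all promoters. The NRF1 core was found in 4 of the 7 RefSeq promoters, those of Mlh3, Rnf212, Ccnb1ip1 and Hfm1. It was found in 7.93% of all promoters and in 10.1% of the 13006 promoters with at least 12 CpG. The STRA8 core was found in Msh5 and Ccnb1ip1 and at 4 places in Hfm1, against 26.8% of all promoters and 26.0% of the CpG-rich ones. The MYB core was found in all 7, against 80.3% and 75.1%. The CCAAT box was found in 4 members, against 37.4% of all promoters and 35.5% of those with at least 12 CpG. The GC box was also found in 4, against 35.7% and 73.1%. The E-box (7.15% and 11.1%), the E2F core (4.60% and 9.72%) and the CRE core (20.8% and 34.1%) were found in 2 each, and the RFX core (12.5% and 13.0%) in Rnf212 alone among the 7. These matches describe the letters of the RefSeq promoters and were not tested. For Ccnb1ip1, the CpG count and the matches describe its downstream TSS alone. For Msh4, they describe a promoter that overlapped no H3K4me3 peak. A stretch of 166 bp shared by the H3K4me3 peaks of Msh4, described below, held 1 match to the STRA8 core.

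The crossover genes carried H3K4me3 in most libraries, with called peaks that were narrower at the median than those of all called genes in 9 of the 10 lists. In leptonema, 6 of 7 members had a peak in experiment 1 and 7 of 7 in experiment 2, against 38.7% and 46.3% of all genes. In zygonema, 6 of 7 had a peak in each experiment, against 36.2% and 35.3%. In early pachynema, the count was 6 of 7 in experiment 1 and 1 of 7 in experiment 2, against 33.6% and 25.2%. In late pachynema, it was 3 of 7 and 7 of 7, against 26.4% and 39.7%. In diplonema, it was 4 of 7 and 7 of 7, against 28.7% and 46.0%. The member count therefore differed at least as much between the experiments of each later stage as between the means of the stages, which ran from 3.5 to 6.5. The lists with the lowest counts were also short ones, with 4883 peaks in early pachynema of experiment 2, 5189 in late pachynema of experiment 1 and 6645 in diplonema of experiment 1. Early pachynema of experiment 1 was as short, with 6647 peaks, and held 6 of the 7 members. The paper also gives each library a SPoT percentage over all sites, a measure of signal. It was lowest in the same libraries that had the lowest member counts, and its part in the counts was not tested. The mean was 6.25 ± 0.50 members (SD, n = 4 lists) in leptonema and zygonema and 4.67 ± 2.42 (SD, n = 6 lists) in the later stages. When only the widest 4883 peaks of every list were kept, which removes narrow peaks as well as shortening the list, these means were 1.75 and 2.50, in the opposite order.

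The other antibodies gave a different count. With H3K4me2/3, all 7 members had a peak in every stage, against 64.7% of all genes at leptonema, 59.4% at zygonema, 53.7% and 55.4% at early and late pachynema and 53.3% at diplonema. Of all genes, 47.8% had a peak in all 5 of these lists. With H3K9ac, 3 of 7 members had a peak at leptonema and all 7 at both zygonema and early pachynema, whereas late pachynema had 1 and diplonema 0. The shares of all genes at these 5 stages were 14.8%, 41.1%, 35.3%, 8.27% and 1.99%, and the H3K9ac lists fell from 16003 peaks in zygonema to 516 in diplonema. All 7 members were thus called in the longest H3K9ac lists and fewer in the shorter ones. With 1 list per stage, stage and list length cannot be told apart.

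**Figure D1:**
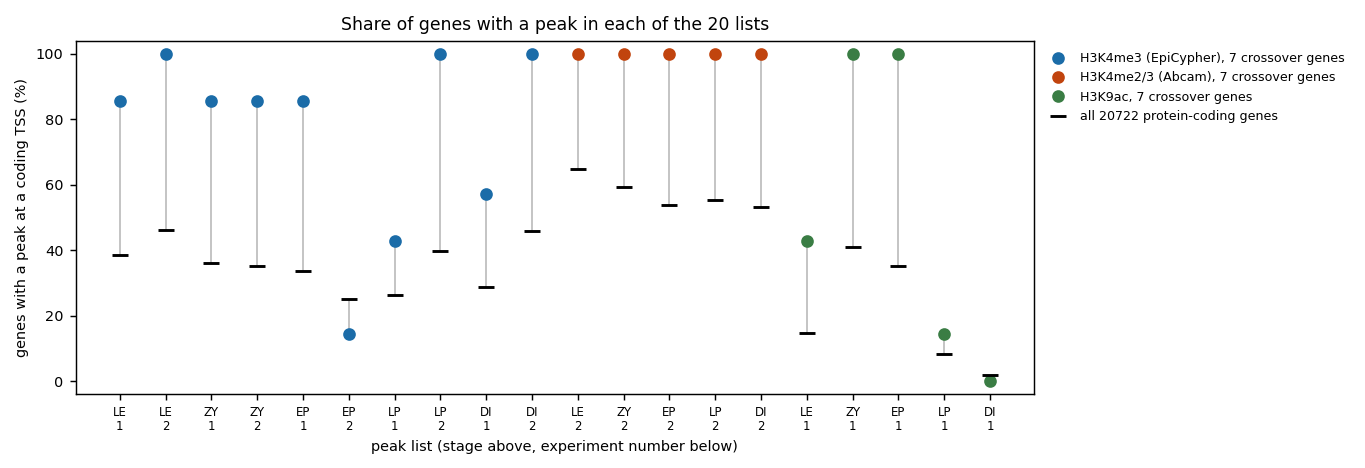
Share of genes with a peak at a coding TSS (y axis, percent) in each of the 20 peak lists (x axis, stage and experiment number; LE leptonema, ZY zygonema, EP early pachynema, LP late pachynema, DI diplonema). Dots show the 7 crossover genes and dashes all 20722 genes, and the members lie above all genes in all lists but early pachynema of experiment 2 with H3K4me3 and diplonema with H3K9ac.

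The next tests, over all genes with an H3K4me3 peak in at least 1 library, asked whether width differed between stages. They were exact permutation tests over the 10 libraries, with 11215 genes tested and Benjamini-Hochberg adjustment over all of them. In these tests and in all mean widths below, the width was 0 where no peak was called. A lower mean can therefore come from missing calls as well as from narrower peaks. The first compared all 5 stages, the second leptonema and zygonema with the 3 later stages, and the third both pachytene stages with the rest. None of the 7 members passed an adjusted p of 0.05 in any of them, and neither did any other gene (0% of those tested in each direction). The smallest p that the libraries allow is 0.00106 for the first test and 0.00476 for the others, and the smallest adjusted p of any gene was 0.355, 0.115 and 0.549. After adjustment, no gene can pass unless many genes share the smallest p. The lack of passing genes therefore does not show that widths were alike between stages. At an unadjusted p under 0.05, 3 members were wider in leptonema and zygonema, against 14.7% of all genes tested, and 0 were narrower, against 2.38%. In the third test, 1 member was narrower at pachynema, against 8.53%. In the 5-stage test there were 0 members, against 11.5%. The 3 members were Msh4, Msh5 and Hfm1, and the unadjusted p of Msh4 and Hfm1 rose above 0.05 under some alternatives that are given with each gene. The median difference of leptonema and zygonema from the later stages was 226 bp over the 7 members and 89.7 bp over all genes tested.

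**Figure D2:**
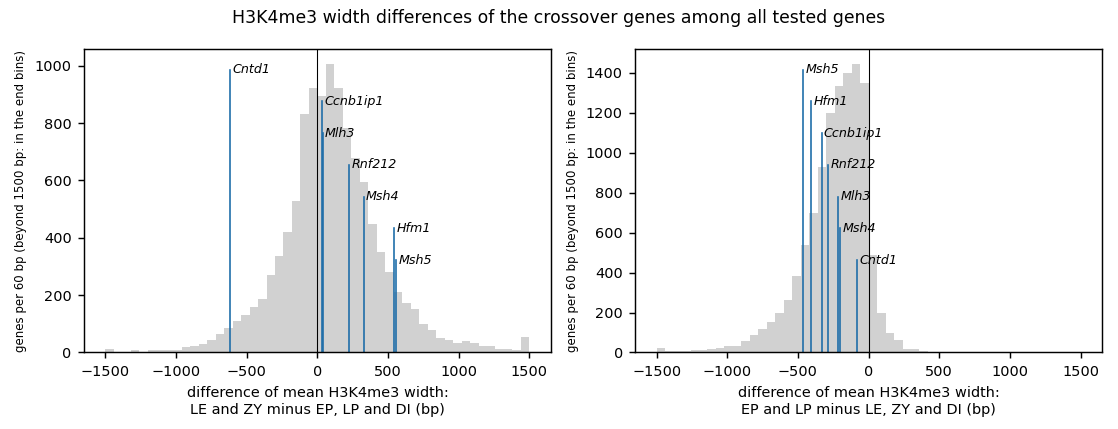
Difference of mean H3K4me3 peak width (x axis, bp) for all 11215 tested genes (grey, genes per bin) and the 7 crossover genes (blue lines with names), for leptonema and zygonema minus the later stages (left) and both pachytene stages minus the others (right). On the left, Msh5, Hfm1 and Msh4 lie at 557 bp, 545 bp and 328 bp and Cntd1 at -615 bp. On the right, all 7 lie below 0, as 92% of all genes do.

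Msh5 and Hfm1 had their widest H3K4me3 peaks in leptonema. The widest H3K4me3 peaks of Msh4 and Rnf212 were also found there, in experiment 2. At Msh5, the peak was 688 bp wide in leptonema of experiment 1 and 1086 bp in experiment 2, and 302 bp and 658 bp in zygonema. Neither early pachynema library, nor experiment 1 in late pachynema and diplonema, had a peak at Msh5, and experiment 2 gave 291 bp in late pachynema and 470 bp in diplonema. Both leptotene widths exceeded those of the other 8 libraries, as they did for 12.2% of all genes tested. Counting 0 for libraries without a peak, the mean was 684 bp in leptonema and zygonema and 127 bp in the later stages. This is a difference of 557 bp (exact permutation p = 0.0143, adjusted p = 0.176, two-sided). The 2 groups overlapped, since diplonema of experiment 2 exceeded zygonema of experiment 1. Widths without overlap, with leptonema and zygonema higher, were seen in 0 members and in 5.47% of all genes tested.

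At Hfm1, the H3K4me3 peak was 913 bp and 1247 bp wide in leptonema of experiments 1 and 2, 630 bp and 688 bp in zygonema, and 642 bp in early pachynema of experiment 1. There was no peak in early pachynema of experiment 2, nor in late pachynema and diplonema of experiment 1, whereas experiment 2 gave 557 bp and 749 bp there. Hfm1 was the other member whose leptotene libraries both exceeded all others. Counting 0 for libraries without a peak, its means of 870 bp in leptonema and zygonema and 325 bp in the later stages differed by 545 bp (exact permutation p = 0.0476, adjusted p = 0.280). The unadjusted permutation p was 0.0700 with labels permuted within an experiment, 0.0667 with equal list sizes, 0.0571 by width percentile and from 0.0357 to 0.0952 without each library in turn. With H3K4me2/3 the width at Hfm1 ranged from 1482 bp in late pachynema to 1671 bp in early pachynema. All these peaks lay at the first cluster of 3 coding TSSs (chr5:106925852-106926321), and the coding TSS inside the gene at position 106889922 had a peak in none of the 20 lists.

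Msh4, which encodes the partner of MSH5, had narrower peaks. They were 325 bp and 777 bp wide in leptonema, 482 bp and 296 bp in zygonema, and 281 bp in early pachynema of experiment 1. In the later lists of experiment 2 they were 330 bp in late pachynema and 243 bp in diplonema, and the other 3 libraries had no peak. The mean of 470 bp in leptonema and zygonema exceeded the 142 bp of the later stages by 328 bp (exact permutation p = 0.0286, adjusted p = 0.231), and the widths of the groups overlapped. The unadjusted permutation p was 0.0619 with an overlap of 250 bp, 0.4 among the wider peaks of a list and 0.0556 without diplonema of experiment 2. With H3K4me2/3 the width of Msh4 was 980 bp, 1104 bp, 1314 bp, 982 bp and 1263 bp from leptonema to diplonema, the widest in early pachynema. The 7 H3K4me3 peaks shared a stretch of 166 bp (chr3:153905715-153905880), from 258 bp to 423 bp downstream of the most upstream coding TSS at position 153906138, in the first exon of that transcript. The RefSeq start at position 153904891 lay 824 bp further downstream, and its promoter overlapped no H3K4me3 peak. That promoter held 6 CpG in 300 bp, whereas the shared stretch held 17 in 166 bp.

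Msh4 also had a peak inside the gene that was called in zygonema alone. It lay in intron 2 of the most upstream transcript, and its near edge was 5354 bp to 5678 bp downstream of that TSS. It was 519 bp and 372 bp wide in H3K4me3 of experiments 1 and 2 (the first at chr3:153900152-153900670), 709 bp in H3K4me2/3 and 549 bp in H3K9ac. No list of another stage had a peak there. A peak inside the gene, away from its TSSs, in all 4 zygotene lists and in no list of another stage was found for 0.415% of all genes. Msh4 was the only one of the 7 members with this pattern, which was noticed in the data. Rnf212 had a peak of 167 bp inside the gene in H3K4me2/3 at zygonema and Ccnb1ip1 one of 346 bp in H3K4me2/3 at leptonema, and no other peak lay inside a member away from its TSSs.

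**Figure D3:**
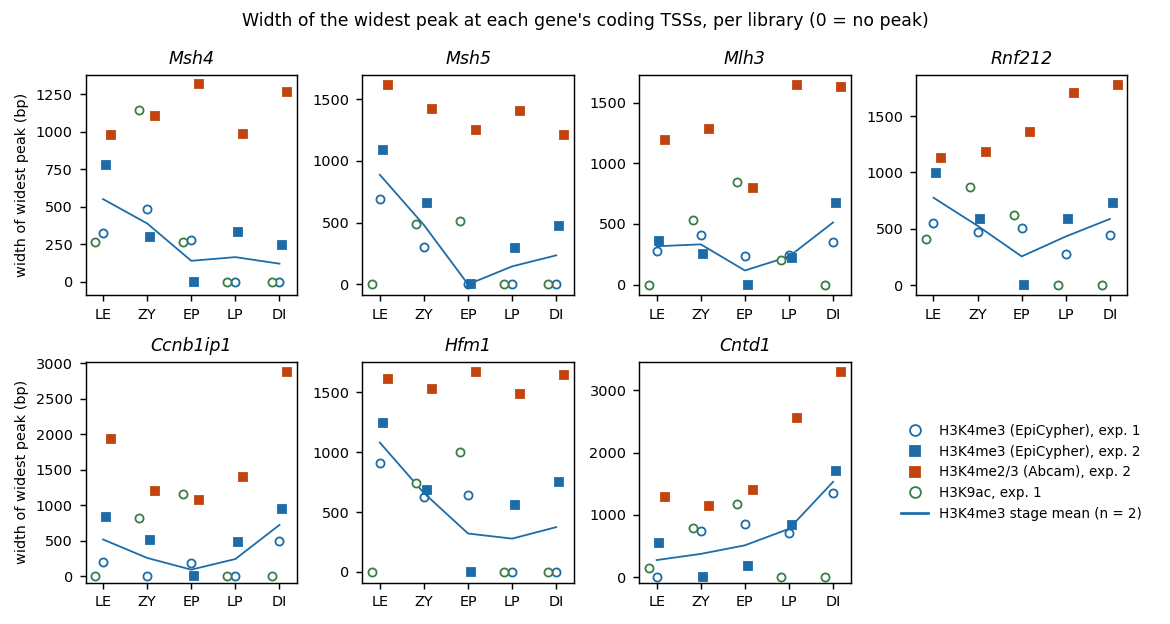
Width of the widest peak at the coding TSSs of each crossover gene (y axis, bp, 0 where no peak was called; the scale differs between genes) by stage (x axis). Open circles are experiment 1, filled squares experiment 2, colours the antibodies and the line the mean of the 2 H3K4me3 libraries, which falls from leptonema for Msh4, Msh5 and Hfm1 and rises to diplonema for Cntd1.

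Cntd1, which encodes a cyclin-related factor, had the opposite course. Its H3K4me3 peak was absent in leptonema of experiment 1 and 549 bp wide in experiment 2, and 747 bp wide in zygonema of experiment 1 and absent in experiment 2. It was 848 bp and 174 bp in early pachynema, 717 bp and 834 bp in late pachynema, and 1353 bp and 1708 bp in diplonema. Both diplotene widths exceeded the other 8 libraries, as they did for 15.9% of all genes tested and for no other member. The stage means were 776 ± 82.7 bp in late pachynema and 1530.5 ± 251 bp in diplonema (SD, n = 2). The mean was 324 bp in leptonema and zygonema and 939 bp later, a difference of -615 bp (exact permutation p = 0.0810, adjusted p = 0.366). With H3K4me2/3, the width was 1287 bp, 1136 bp, 1395 bp, 2550 bp and 3293 bp from leptonema to diplonema. Its rank within the list rose from the 66.9th percentile of peak width in zygonema to the 91.7th in diplonema. Cntd1 was the only member with a peak in the shortest H3K4me3 list.

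The Cntd1 TSS lies 18 bp from that of Coa3, a mitochondrial assembly factor gene on the other strand, and Coa3 had the same width as Cntd1 in all 20 lists. Its TSS lay within the Cntd1 peak in all lists with a peak but early pachynema of experiment 2 with H3K4me3 and leptonema with H3K9ac. The share of the mark that belongs to each of these genes cannot be told apart.

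Rnf212 had an H3K4me3 peak in all libraries but early pachynema of experiment 2. In leptonema it was 556 bp and 997 bp wide, with 469 bp and 586 bp in zygonema, 512 bp in early pachynema of experiment 1, 275 bp and 590 bp in late pachynema, and 450 bp and 726 bp in diplonema. The groups overlapped, and the means of 652 bp in leptonema and zygonema and 426 bp in the later stages differed with an exact permutation p of 0.219 (adjusted p = 0.555). All peaks lay at the most upstream coding TSSs (chr5:108774953-108774982), and the 3 coding TSSs inside the gene had none.

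The position of the Rnf212 peak also differed between libraries, a pattern noticed after the values were seen and given here without a test. The midpoint of the H3K4me3 peak lay between -58 bp and -4 bp of the TSS (negative values are upstream) in the 5 libraries of leptonema, zygonema and early pachynema that had a peak. It lay at -304 bp and -234 bp in late pachynema, and at -408 bp and -310 bp in diplonema, so that the 2 sets of libraries did not overlap. In experiment 1 the peaks of these later stages ended at -167 bp and -184 bp and did not cover the TSS. The mean midpoint was -30.5 ± 25.5 bp (SD, n = 5) in the earlier and -314 ± 71.6 bp (SD, n = 4) in the later libraries, a shift of -284 bp. Of the 4122 genes with a peak in the same 9 libraries, 4.85% had all late pachytene and diplotene midpoints upstream of all earlier ones, and the median shift was 37.6 bp. With H3K4me2/3 the midpoint lay at -23 bp, -9 bp, -131 bp, -362 bp and -588 bp from leptonema to diplonema, and the upstream edge moved from -588 bp to -1477 bp. No annotated TSS of another gene lay within 1000 bp of these coding TSSs of Rnf212.

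**Figure D4:**
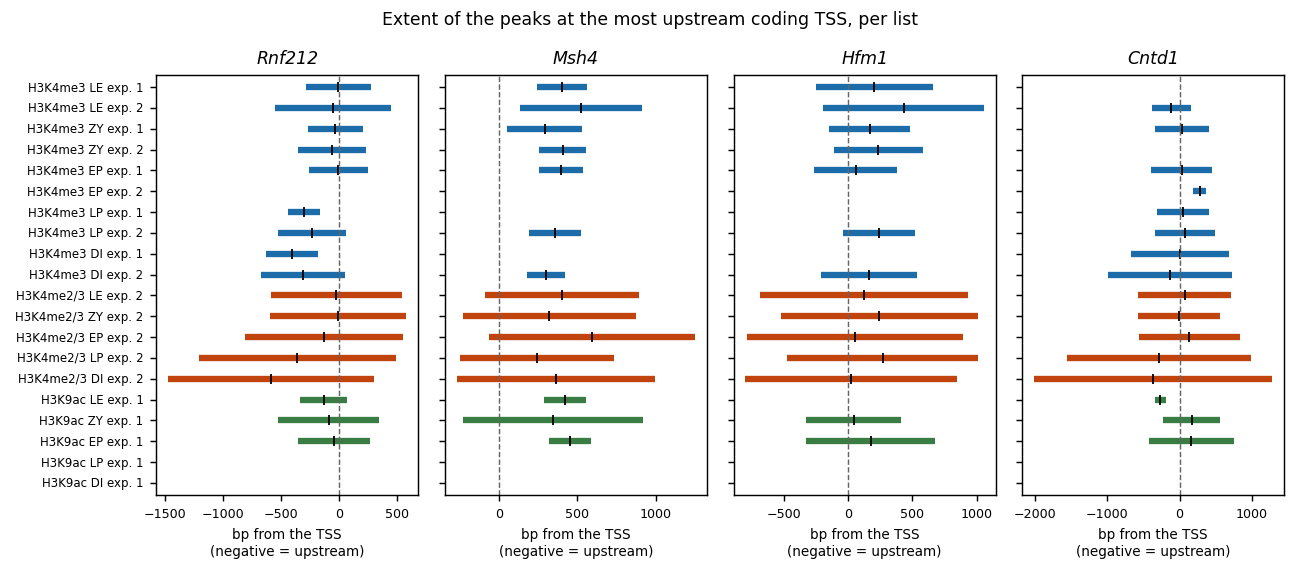
Extent of each peak at the most upstream coding TSS of Rnf212, Msh4, Hfm1 and Cntd1 (x axis, bp from the TSS, negative upstream, with a scale for each gene) in the 20 lists (y axis), with the midpoint as a tick and no bar where no peak was called. The midpoints of the Rnf212 H3K4me3 peaks of late pachynema and diplonema lie upstream of the earlier ones although the extents overlap, and the H3K4me3 peaks of Msh4 lie downstream of the dashed TSS.

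Ccnb1ip1 has 2 coding TSSs, and the upstream one lies close to those of other genes. This TSS (position 50807732 on chromosome 14) lies 35 bp from that of Rpph1, the RNA component of RNase P, and 109 bp from that of Parp2, a DNA repair gene on the other strand. H3K4me3 peaks lay there in 6 of 10 lists, and in 5 of these the peak covered the TSSs of both neighbours. In early pachynema of experiment 1, late pachynema of experiment 2 and diplonema of experiment 1, the upstream TSS alone had a peak, so that the call of Ccnb1ip1 rested on it. The first of these peaks ran from -414 bp to -226 bp of that TSS and covered no TSS of Ccnb1ip1 or its neighbours. The share of the mark there that belongs to each of these genes cannot be told apart. At the downstream TSS (position 50795728), the peak was 205 bp and 229 bp wide in leptonema, 409 bp in zygonema of experiment 2 and 435 bp in diplonema of experiment 2, and the other 6 libraries had none. H3K4me2/3 covered both TSSs in all 5 stages, with 983 bp in leptonema and 2627 bp in diplonema at the downstream TSS. H3K9ac was called at both in zygonema and early pachynema only. Over both TSSs, the widest H3K4me3 peak averaged 389 bp in leptonema and zygonema and 354 bp later (exact permutation p = 0.862, adjusted p = 0.976).

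Mlh3 had narrow H3K4me3 peaks that were called in 9 of the 10 libraries. They were 275 bp and 356 bp wide in leptonema, 408 bp and 255 bp in zygonema, and 232 bp in early pachynema of experiment 1, with none in experiment 2. They were 241 bp and 220 bp in late pachynema and 350 bp and 674 bp in diplonema. All 4 pachytene values, including the library without a peak, lay below all 6 others. The share of all genes with such a separation was not counted, and 92% of all genes tested had a lower mean at pachynema. The means of 173 bp and 386 bp differed by -213 bp (exact permutation p = 0.00952, adjusted p = 0.549). The unadjusted permutation p was 0.0833 without early pachynema of experiment 2, 0.0952 by width percentile and 0.4 with equal list sizes. With H3K4me2/3 the peak was also narrowest in early pachynema, at 798 bp, but 1649 bp wide in late pachynema. Mlh3 was the only member with an H3K9ac peak in late pachynema, of 204 bp.

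By the number of H3K4me3 lists with a peak, Mlh3 and Rnf212 came first with 9 of 10, a number that 23.7% of all genes reached. Cntd1 had 8 (27.5% of all genes reached that number), Msh4, Ccnb1ip1 and Hfm1 had 7 (31.0%) and Msh5 had 6 (33.8%). With H3K9ac, Msh4, Mlh3, Rnf212 and Cntd1 had 3 of 5 lists (17.8% of all genes had at least 3) and Msh5, Ccnb1ip1 and Hfm1 had 2 (34.3%). In experiment 2, the H3K4me2/3 peak was wider than the H3K4me3 peak for every member called with both. The same held for 96% of all genes called with both in leptonema, 99.3% in zygonema and 100% in early pachynema. It held for 99.8% in late pachynema and 99.2% in diplonema. The median ratio of the members was 1.49 in leptonema, 2.27 in zygonema, 2.98 in late pachynema and 2.45 in diplonema. Over all genes it was 1.83, 2.58, 2.97 and 2.11. In early pachynema, 6 of 7 members were called with H3K4me2/3 and not with H3K4me3, against 28.5% of all genes, and Cntd1 was wider by 8.02 times with H3K4me2/3, against a median of 3.55 over all genes. The paper lists a different purity and amount of starting chromatin for each of these early pachytene libraries. At the other stages, both were the same for the pair of experiment 2. Antibody and sorted material cannot be told apart in early pachynema. In experiment 1, the median ratio of H3K9ac to H3K4me3 width was 1.46 for the members in zygonema and 1.47 in early pachynema, against 1.47 and 1.31 for all genes. It was below 1 in leptonema (0.781 for 2 members, 0.551 for all genes) and in late pachynema (0.846 for Mlh3, 0.591 for all genes), and no member was called with both in diplonema.

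Other genes of the pathway were read in the same way, from lists chosen with earlier results of these data known. None passed an adjusted p of 0.05 in the 3 tests. Of the partners of the crossover factors, 4 of 5 on chromosomes 1 to 19 had an H3K4me3 peak in at least 1 list, against 54.1% of all genes and 7 of 7 members. Spo16 (annotated as 1700028K03Rik), which acts with SHOC1 at recombination intermediates, had a peak in 6 H3K4me3 lists, Rnf212b and the kinase gene Cdk2 in 8 each, and Prr19, whose product acts with CNTD1, in 6. Shoc1 (annotated as AI481877) had none at its annotated coding TSS. All 4 were called in every H3K4me2/3 list, as the 7 members were. The mean width of Prr19 was 175 bp in leptonema and zygonema and 299 bp later (exact permutation p = 0.529, adjusted p = 0.754, n = 4 and 6 libraries).

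Of the mismatch repair genes, 2 are given here, chosen after their values were seen, and both had a wider mean in leptonema and zygonema than later. Msh3, which recognizes insertion loops, averaged 1335 bp and 202 bp, a difference of 1133.5 bp (exact permutation p = 0.00476, the smallest possible, adjusted p = 0.115). Exo1, whose exonuclease works with MutLγ, averaged 548 bp and 95.5 bp (exact permutation p = 0.00952, adjusted p = 0.148). The 6 structure-specific nuclease genes had 0 members wider and 1 narrower in leptonema and zygonema at an unadjusted p under 0.05, against 14.7% and 2.38% of all genes tested. That gene was Slx4, a nuclease scaffold, with 653 bp in leptonema and zygonema and 960 bp later (exact permutation p = 0.0429, adjusted p = 0.262). The 6 genes of joint molecule helicases and dissolution had 0 in either direction, against the same shares, and Rmi1, a partner of BLM, had H3K4me3 peaks of up to 3037 bp.

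The genes most like each member were those with the smallest mean absolute difference in width percentile over the 20 lists. They were Zkscan3, Fez2 and Nup107 for Msh4, Srbd1, Nsf and Zbtb8a for Msh5, Usp35, Ccnj and Agap3 for Hfm1, and Mrpl9, Nup54 and Oaz3 for Rnf212. For Ccnb1ip1 they were Ankzf1, Atg9a and Lca5, for Cntd1 Rangrf, Zfp385a and Sac3d1, and for Mlh3 Preb, Exog and Tmed9. No member was among the 3 most alike of another. The closest of these lay 6.19 percentile points from Hfm1 (Usp35, with the same call in 20 of 20 lists) and the farthest 10.3 points from Cntd1 (Sac3d1, with the same call in 17).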

How the data were processed

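ChIP-Seq peaks of 20 libraries were analysed, and the other 31 of the 51 samples were not analysed here. The authors aligned reads to mm10 with BWA mem 0.7.12 and called broad peaks per library with MACS2 2.1.2. The control was input of the same stage for H3K4me3 and is not given in the sources used here for H3K9ac. The submitters' processing notes also name deepTools 3.0.1. Each deposited list holds coordinates alone, without a score, signal or read count, so depth and counting error are unknown. The spike-in normalization of the study is not part of them, and a deeper or purer library can give a longer list with wider peaks.

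Peaks were matched to windows of 500 bp on either side of protein-coding 5′ ends (GENCODE M21) with Python 3.11.15 and numpy 2.4.6 (scipy 1.17.1 and matplotlib 3.10.9 for intervals and plots). Width was 0 where no peak was called. Tests were exact permutations over the 10 H3K4me3 libraries, 945 partitions into stages or 210 splits, two-sided for the splits, with Benjamini-Hochberg adjustment over 11215 genes. They were tested on simulated data. Genes named are the 7 members, the pathway lists (with up to 6 genes each by value), genes with a TSS within 1000 bp of a member's and the 3 most alike per member. Members and lists were chosen with earlier results of these data known. Some genes of the mismatch repair list are not reported here, and neither are counts over that list. Alternatives were a window of 1000 bp, an overlap of 250 bp, all transcripts, the wider peaks or equal numbers of peaks of each list, width percentile, summed width, other filters, a replicate block and leaving out each library. Those for the position of the Rnf212 peak were chosen after seeing the data. The correlations of deviations from the stage mean between libraries with the same experiment number ranged from -0.233 to 0.365 over 10 pairs of stages, so the number was not taken as pairing the libraries.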

Additional observations from a re-analysis of the deposited data

How the results depend on the processing

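None of the 7 members and no other gene passed an adjusted p of 0.05 in any of the 3 tests under any alternative. These settings could hardly have called a gene, since none can pass unless many share the smallest permutation p. For leptonema and zygonema against later stages, that p was 0.00476 with 210 splits and 0.0119 without a leptotene or zygotene library, with 84 splits. The lowest adjusted p of a member in any setting was 0.217 in the 5-stage test, 0.108 for leptonema and zygonema against later stages and 0.214 for pachynema against the other stages. With a replicate block, in which labels were permuted within an experiment, 0 genes passed in each test, and leaving out each library gave from 0 to 0. The numbers were not taken as pairing the libraries. The correlation of deviations was 0.365 for late pachynema with diplonema and 0.152 for zygonema with early pachynema, and a batch shared by some stages of an experiment was not tested. At an unadjusted p under 0.05, the genes with a pachytene difference were 964, and 635 without leptonema of experiment 2, 388 without late pachynema of experiment 1, 351 without early pachynema of experiment 2 and 2046 without diplonema of experiment 1. In the 5-stage test they were 1287, and 757 without early pachynema of experiment 2, 838 without leptonema of experiment 2, 843 without zygonema of experiment 1 and 594 with the replicate block. For leptonema and zygonema against later stages they were 1910, and 1190 without leptonema of experiment 2.

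The mean number of members called per list moved most, among the alternatives run, when narrow peaks were left out. When only peaks wider than the median of their list were kept, it was 2.75 in leptonema and zygonema, 1.50 in the later H3K4me3 lists, 6.20 with H3K4me2/3 and 1.6 with H3K9ac, against 6.25, 4.67, 7.00 and 3.6 with all peaks. With equal list sizes, which keep the widest peaks and so change number and width together, it was 1.75 in leptonema and zygonema and 2.50 in the later lists, in the opposite order. Leaving out each library gave 6.00 to 6.33, 4.20 to 5.40, 7.00 to 7.00 and 2.75 to 4.5. The window, the overlap and the choice of transcripts moved no mean by more than the spread between libraries. The shift of the Rnf212 midpoint was -227 bp for the upstream edge and -421 bp for H3K4me2/3, and -310 bp to -252 bp without each library in turn. Depth is unknown, so an absent peak at a member may be a peak below the threshold.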
